A study of Mus musculus with 14 samples.

Results

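The comparison described here sets wild-type mouse embryonic fibroblasts kept without glucose against wild-type cells kept in normal medium. Mouse embryonic fibroblasts are primary connective-tissue cells grown out of the embryo. The rule that defines the comparison takes the 3 wild-type libraries labelled as glucose-starved and the 4 wild-type libraries labelled as untreated, which are 7 of the 14 libraries of the series, and fits them without the SirT7-/- libraries. All cells were of the 129s2 strain, came from embryos of day 14.5 and were harvested at passages 3 to 4. The first group, WT-NT 1 to 4, spent 18 h in normal medium, and the second, WT-GS 1 to 3, spent 18 h in medium without glucose. Neither group carries a deletion or transgene, and no agent other than the change of medium is named. The series as a whole asks how loss of SirT7, an NAD-dependent deacylase, bears on glucose starvation; the wild-type cells give the response of the unmodified genotype. Cultures of this kind are not a clonal line and can hold cells of other embryonic tissues. The labels do not say whether replicates of a group are separate cultures, embryos or litters, so the p-values below measure only the spread between these samples, which may be technical.

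Glucose feeds glycolysis and the pentose phosphate pathway, and it also supplies the sugar nucleotides from which N-glycans are built on proteins entering the endoplasmic reticulum (ER). When unfolded proteins build up in the ER, the sensors IRE1, PERK and ATF6 start the unfolded protein response, in which the factors XBP1, ATF6 and ATF4 raise chaperones, ER-associated degradation and amino acid supply. Several ER chaperones were first known as glucose-regulated proteins because they accumulate in fibroblasts deprived of glucose. Growing fibroblasts otherwise spend much of their transcript pool on collagens and other matrix proteins, and on lipid synthesis and cell division.

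Total RNA was sequenced, and the deposited table gives estimated counts for 24015 gene symbols. Totals per wild-type library ran from 59788270 in WT-GS 2 to 89923476 in WT-NT 4, and 16656 to 17386 genes had a count. Levels are given below in CPM, the count scaled to the total of its library, and are not scaled by gene length, so levels of different genes are not compared. Where a gene has 4 values and then 3, these are the untreated libraries in the order WT-NT 1 to 4 and the starved libraries in the order WT-GS 1 to 3. A count of 0 allows up to 0.0502 CPM in the shallowest library and 0.0334 CPM in the deepest, taking 3 counts as the limit, which covers counting error only. An exact 0 can also be a failed estimate, because Hmgcs1, an enzyme of sterol synthesis, was listed at 0 in every library. Sirt7 lay between 16.9 and 23.1 CPM in the 7 libraries. Xist, the transcript of the inactive X chromosome, lay between 798 and 1591 CPM, and the Y-linked genes looked up were listed at 0 in every library. The first principal component held 56.8% of the variance and separated the media, with WT-NT 4 the untreated library nearest to the starved ones.

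Glucose-free medium was accompanied by changes in the transcripts of a large share of the genes measured, in near-equal numbers upward and downward. Of 15263 genes tested with edgeR's quasi-likelihood test, 5161, or 33.8%, were called at a Benjamini-Hochberg adjusted p under 0.05. Of these, 2566 were higher in starved cells (16.8% of the genes tested) and 2595 were lower (17% of the genes tested). Changes of at least 2-fold were called upward for 657 genes (4.3%) and downward for 1079 genes (7.07%). In 6927 genes, 45.4% of those tested, no starved library overlapped any untreated one. The median log2 change over all genes tested was -0.03, and 47.5% of changes were positive. Log2 changes are starved minus untreated, with a standard error (SE) from the fit, and "rose" and "fell" are used only for genes called in this fit; a single signed number beside a gene is its log2 change. In bulk RNA, fewer cells of a type and less RNA per cell cannot be told apart.

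The number of calls depended on which library was left out, while the direction of the called genes did not. Without WT-NT 4 the fit called 6668 genes, 1038 of them at least 2-fold higher. Without WT-GS 1, WT-GS 2 or WT-GS 3 it called 2841, 3353 and 2856 genes, and without WT-NT 1, WT-NT 2 or WT-NT 3 it called 3811, 5238 and 3863. Leaving out a library of the smaller group also leaves that group with 2 libraries. Of the 5161 genes, 0 changed sign in any of these 7 fits, beside at most 29 that were then not tested. Each of these fits shares most libraries with the fit that chose the genes, so a change of sign was unlikely from the start. A total of 1350 genes (8.84% of those tested) were called higher, and 1129 genes (7.4%) lower, in all 7 fits as well as in the fit on all libraries; these are called stable below. For the gene lists that follow, the number of members called is also given without a library wherever a count above 2 moved by more than 1.5 times. Where a gene named as called lost its call without a library, that library is named in the same paragraph or where the gene is first described.

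**Figure D1:**
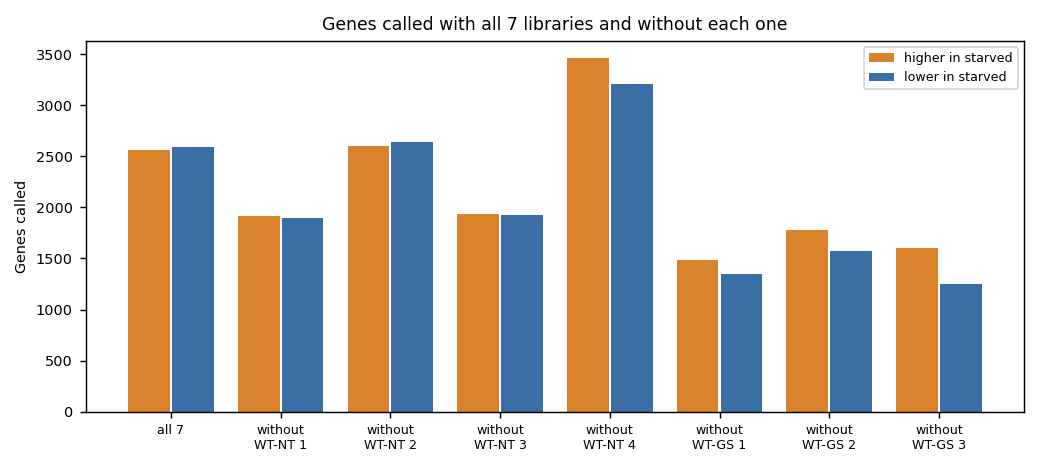
Genes called higher (orange) and lower (blue) in starved wild-type cells (y axis: number of genes at an edgeR adjusted p under 0.05), with all 7 libraries and without each one. The count is highest without WT-NT 4, with 3458 higher and 3210 lower, and lowest without a starved library.

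Among called genes with at least 20 CPM in the higher group and no overlap, the largest rises were led by genes of ER quality control. Derl3, a component of the channel that moves misfolded proteins out of the ER, stood at 0.232, 0.314, 0.257 and 0.556 CPM in the untreated and 124, 62.1 and 88.8 CPM in the starved libraries. The groups lay far apart, and the fitted difference was 273-fold (log2 change 8.09 ± 0.38, edgeR adjusted p = 6.59e-05). Ero1lb, an ER oxidase that recharges protein disulfide isomerases, stood at 3.99, 2.48, 4.15 and 3.93 CPM in normal and 62.3, 49.01 and 49.9 CPM in glucose-free medium, with no overlap (log2 change 3.93 ± 0.20, edgeR adjusted p = 6.95e-05). Dnajb9, a co-chaperone of the ER Hsp70 protein, stood at 21.3, 22.2, 23.7 and 39.98 CPM untreated and 377, 300.4 and 297 CPM starved; WT-NT 4 was the highest untreated library and still far under the starved ones (log2 change 3.64 ± 0.24, edgeR adjusted p = 0.000131). Creld2, a secreted ER stress protein, rose with a log2 change of 3.23, and Sdf2l1, a partner of Hspa5, with 3.14. The largest rises also held genes outside ER quality control. Car6, a secreted carbonic anhydrase, stood at 1.59, 1.75, 1.85 and 2.90 CPM in the untreated and 42.5, 26.7 and 37.7 CPM in the starved libraries. Ano1, a calcium-activated chloride channel, rose with a log2 change of 3.75, Leprel1, a collagen prolyl 3-hydroxylase, with 3.06, and Fam174b with 3.54. Clic5, a chloride intracellular channel protein, rose with a log2 change of 3.93 ± 0.85 (SE), and its untreated libraries were uneven: WT-NT 4 held 4.68 CPM against 0.410 to 0.628 CPM in the others. Il11, a cytokine of the IL-6 family, stood at 6.04, 3.80, 5.82 and 3.01 CPM in normal and 22.7, 41.6 and 30.6 CPM in glucose-free medium. Each of these rises was called in every fit without a library. The lack of overlap was a condition of their choice and is no further result.

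Among called genes with at least 20 CPM in the higher group and no overlap, the largest fall was that of Txnip, the thioredoxin-interacting protein that restrains glucose uptake and whose gene is known to be driven by glucose through MondoA and ChREBP. Its level was 161, 146, 220.3 and 151 CPM untreated and 4.80, 1.57 and 4.46 CPM starved, 45.1-fold lower in the fitted means (log2 change -5.50 ± 0.43, edgeR adjusted p = 0.000264). The starved libraries lay at a small share of any untreated one. Lrrc17, a secreted leucine-rich repeat protein, fell from 198 ± 53.5 to 7.18 ± 3.17 CPM (SD, n = 4 and 3). Mest, an imprinted gene expressed from the paternal allele, fell from 50.5 ± 15.8 to 3.68 ± 0.987 CPM, and Mfap2, a microfibril glycoprotein, from 40.8 ± 11.6 to 4.68 ± 1.02 CPM. Cxcl5, a neutrophil-attracting chemokine, stood at 20.4, 62.01, 17.02 and 23.8 CPM in the untreated and 1.05, 1.99 and 0.622 CPM in the starved libraries; WT-NT 2 was well above the rest of its group, and all starved libraries lay below all untreated ones. Nrep stood at 42.3, 50.4, 52.4 and 143 CPM in normal and 10.5, 5.20 and 7.25 CPM in glucose-free medium, with WT-NT 4 the farthest from the starved libraries. Serpina3g, one of a family of near-identical protease inhibitor genes whose reads the counting may divide, fell with a log2 change of -3.07. F13a1, the A chain of coagulation factor XIII and a macrophage product, stood at 13.3, 9.22, 49.1 and 9.42 CPM untreated and 0.873, 0.217 and 0.645 CPM starved. Eln, the core protein of elastic fibres, stood at 131, 325, 91.8 and 294 CPM in the untreated and 39.2, 3.78 and 16.5 CPM in the starved libraries, and its call was lost without WT-GS 3 (edgeR adjusted p = 0.0737). Lum, a collagen-binding proteoglycan, fell with a log2 change of -3.23 ± 0.82 and lost its call without WT-GS 2 or WT-GS 3 (edgeR adjusted p = 0.0743 and 0.0784). Coro1a and Fmnl1, actin regulators of white blood cells, had log2 changes of -3.54 and -3.16. Coro1a was called in only 2 of the 7 fits without a library, those without WT-NT 2 (0.0428) and WT-NT 4 (0.0407, edgeR adjusted p), and Fmnl1 in 3, those without WT-NT 2, WT-NT 3 and WT-NT 4. Macrophage markers summed to 0.232% of counts in WT-NT 3, the highest library, and 0.00141% in WT-GS 2, the lowest.

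**Figure D2:**
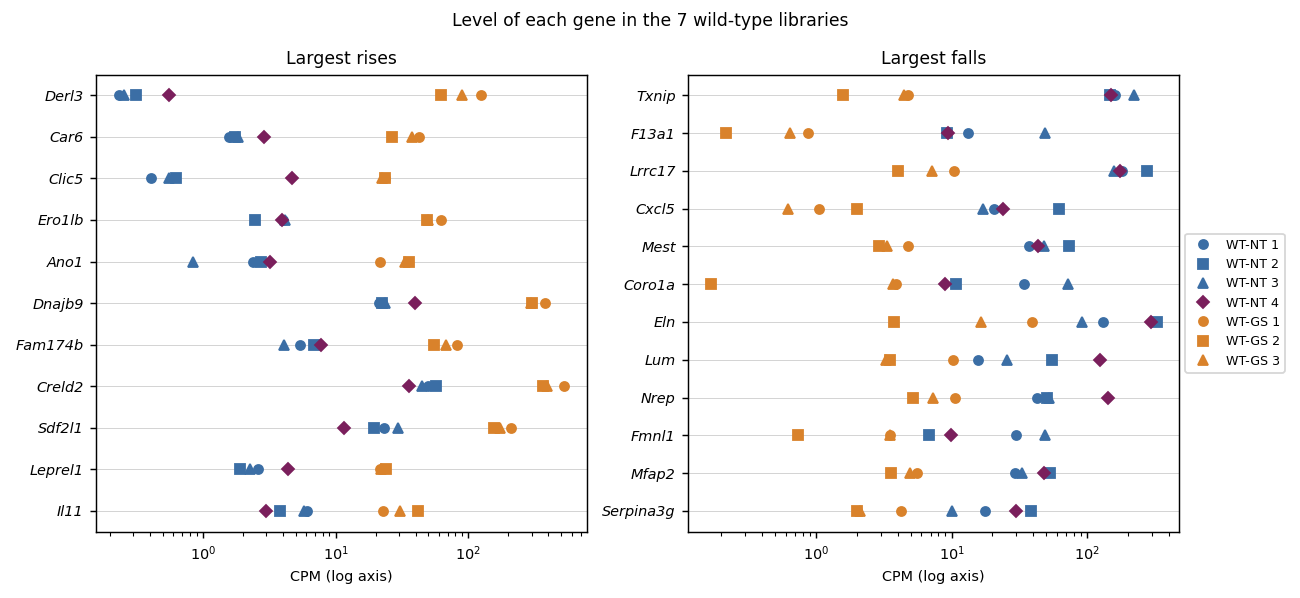
Level in CPM (x axis, log scale) of the largest rises (left) and falls (right) among called genes with at least 20 CPM in the higher group and no overlap, 1 point per library. Txnip lies between 146 and 220 CPM in untreated and between 1.57 and 4.80 CPM in starved libraries, and the untreated libraries of F13a1, Coro1a, Lum and Fmnl1 are spread far wider than those of Txnip.

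Few genes crossed between near absence and presence under the limits set here. No gene was under 0.1 CPM in every untreated library and at least 1 CPM in every starved one. That result rests on the 0.1 CPM limit. Derl3 went from at most 0.556 CPM untreated to at least 62.1 CPM starved. Bhlha15 and Wnt7a, given below, also rose from low untreated levels. In the other direction 3 genes met the rule. Adamts16, a secreted metalloprotease, had 7.75, 6.86, 14.1 and 5.03 CPM in normal and 0.0590, 0 and 0.0938 CPM in glucose-free medium. H2-Q1, a class Ib histocompatibility gene with near-identical copies that the counting may divide, was listed at 0 in all starved libraries against 1.51 to 1.95 CPM. Ccl11, the eosinophil chemokine eotaxin, had 1.01, 1.19, 1.09 and 1.48 CPM untreated and 0.0590, 0.0502 and 0 CPM starved. The starved values of all 3 genes lie near the limit that a count of 0 allows, and their untreated values do not.

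The largest single gains of CPM were mostly those of ER folding genes, and the largest single losses mostly those of matrix genes. Among called genes without overlap, the 10 with the largest gain in mean CPM were Hsp90b1, Hspa5, Eef1a1, Calr, Pdia3, Itgb1, Pdia4, Eef2, Pdia6 and Hyou1, which took 19.1% of all CPM gained. Of these, 7 are ER chaperones or disulfide isomerases. Hsp90b1, the ER form of Hsp90, stood at 1970.1, 1789, 1793 and 1581 CPM in the untreated and 10069, 8291 and 8215 CPM in the starved libraries (log2 change 2.35 ± 0.13, edgeR adjusted p = 8.03e-05), and Hspa5 (BiP), the ER form of Hsp70, at 1449, 1479, 1456 and 1065 CPM in normal and 7435, 6496 and 6206 CPM in glucose-free medium (log2 change 2.34 ± 0.15, edgeR adjusted p = 0.000131). For both, WT-NT 4 was the lowest untreated library, the side away from the starved cells. Itgb1, the shared beta subunit of collagen and fibronectin receptors, rose from 2000.2 ± 197 to 4272 ± 148 CPM. Eef1a1 and Eef2, the translation elongation factors, had smaller log2 changes of 0.56 and 0.69. Eef1a1, which has many processed copies in the genome, was called in 3 of the 7 fits without a library and lost without WT-NT 1, WT-NT 3, WT-GS 1 and WT-GS 3 (edgeR adjusted p up to 0.09), and the call of Eef2 was lost without WT-GS 3 (edgeR adjusted p = 0.0522).

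The 10 genes with the largest loss were Col1a1, Col1a2, Thbs1, Col3a1, Postn, Col5a1, Col6a3, Scd2, Col12a1 and Actb, with 22% of all CPM lost. Col1a1, the main chain of type I collagen, stood at 9941, 14400.2, 14034 and 9036 CPM untreated and 2551, 2772 and 2875 CPM starved (log2 change -2.07 ± 0.21, edgeR adjusted p = 0.000587), and Col1a2, its partner chain, at 11238, 12947, 13089.9 and 11169 CPM in the untreated and 4718, 4015 and 4675 CPM in the starved libraries (log2 change -1.39 ± 0.14, edgeR adjusted p = 0.00052). Neither overlapped between groups. Scd2, a fatty acid desaturase and the only lipid enzyme among the 10, stood at 1798, 1709, 1776 and 2069.6 CPM in normal and 425, 400.1 and 398 CPM in glucose-free medium (log2 change -2.13 ± 0.10, edgeR adjusted p = 6.59e-05). Postn, a matrix protein of fibroblasts, fell from 4666 ± 489 to 1806 ± 89.5 CPM. Thbs1, Col12a1 and Actb changed less, by a log2 change of -0.85, -0.73 and -1.05. The call of Actb, cytoplasmic actin, was lost without WT-GS 3 (edgeR adjusted p = 0.0503), that of Col12a1 without WT-GS 1 and WT-GS 3, and that of Thbs1 without WT-NT 1, WT-NT 3, WT-GS 1 and WT-GS 3. The list of 26 ER chaperones took 0.867 ± 0.0743% of the counts in untreated and 2.93 ± 0.334% in starved libraries (SD, n = 4 and 3). The list of collagens went from 5.08 ± 0.386% to 2.31 ± 0.0724%.

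**Figure D3:**
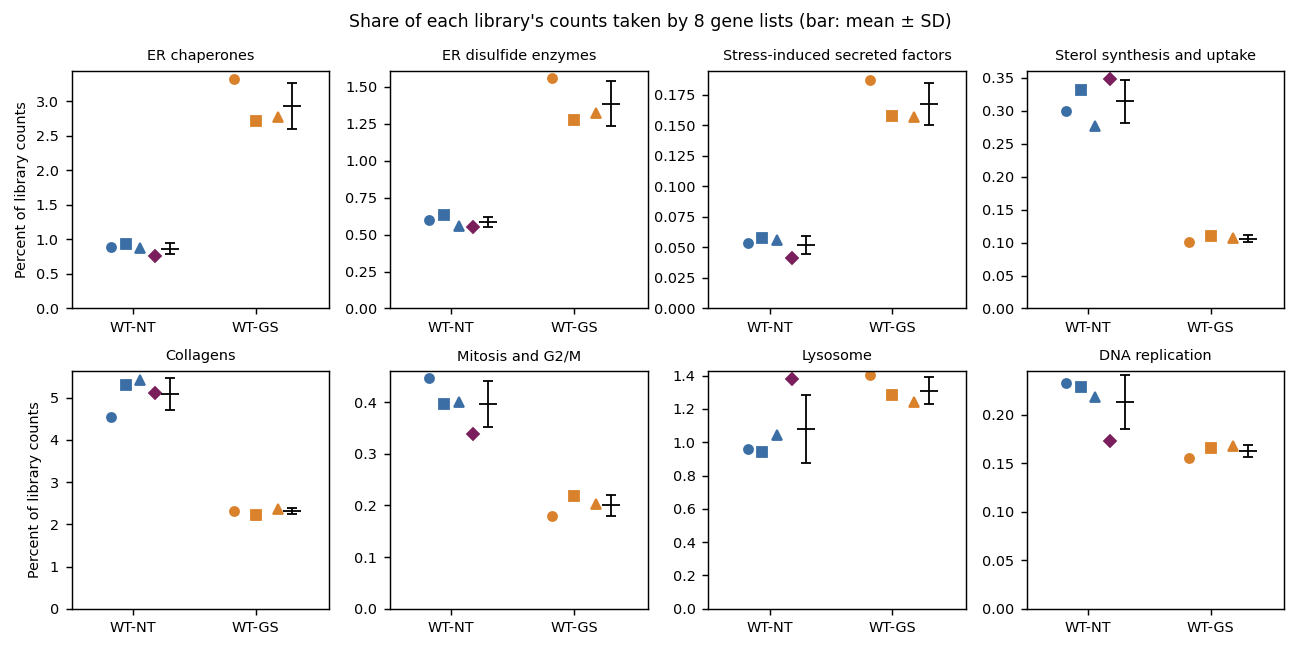
Percent of each library's counts (y axis, from 0) taken by 8 gene lists, 1 point per library, with WT-NT 4 as the purple diamond and the bar giving mean ± SD. In the top row, collagens and mitosis the media do not overlap; for the lysosome list WT-NT 4 lies among the starved libraries, and for DNA replication it lies just above them.

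Genes were then read by pathway, in 68 lists holding 1802 distinct tested genes. Each count below stands against the shares over all genes given above, and a list is described, not tested. Because calls were so common, a list with about 1 in 6 members called in each direction is near the background.

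ER chaperones rose as a group. Of 26 tested, 20 rose, 2 fell and 4 were not called, with a median log2 change of 1.18, and all 20 rises were stable. Hyou1, a large ER Hsp70-like chaperone, stood at 280.4, 250.5, 259.9 and 215 CPM untreated and 1979, 1450.4 and 1581 CPM starved (log2 change 2.77 ± 0.15, edgeR adjusted p = 6.95e-05). Manf, a secreted ER stress protein, rose with a log2 change of 2.52, Dnajc3, a co-chaperone that also restrains PERK, with 2.45, and Dnajb11, a co-chaperone of BiP, with 1.81. The members that fell were Serpinh1, the collagen-specific chaperone Hsp47 (1344 ± 401 to 724 ± 82.7 CPM), and Fkbp7, an ER prolyl isomerase (log2 change -0.43). Of the fits without a library, Serpinh1 was called only without WT-NT 4, and the call of Fkbp7 was lost without WT-GS 2 or WT-GS 3. Among disulfide enzymes 15 of 23 rose and 1, Gpx7, a peroxidase of the ER, fell (log2 change -0.75). Pdia4 stood at 395, 375, 352 and 331 CPM in the untreated and 2996, 2079 and 2279 CPM in the starved libraries (log2 change 2.80 ± 0.15, edgeR adjusted p = 6.95e-05), Pdia3 rose with 1.72, Ero1l, the partner of Ero1lb, with 1.85, and Erp44, which retains such enzymes in the ER, with 1.07.

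ER-associated degradation and entry into the ER moved the same way. Of 34 degradation genes 19 rose and 1, Tmub1, fell (log2 change -0.98, a call lost without any 1 starved library). Herpud1, a scaffold of the degradation complex, stood at 75.6, 83.9, 72.9 and 76.1 CPM in normal and 460.3, 347 and 401 CPM in glucose-free medium (log2 change 2.43 ± 0.11, edgeR adjusted p = 6.59e-05); Sel1l and Syvn1, its adaptor and ubiquitin ligase, rose with a log2 change of 2.27 and 1.64, and Edem1, which marks glycoproteins for removal, with 1.37. Of 27 translocation genes 16 rose and 0 fell, among them the signal peptidase subunits Spcs3 (log2 change 1.40) and Sec11c (1.27) and the translocon partner Sec63 (0.93). For N-glycan synthesis and transfer 17 of 38 rose and 3 fell (Ost4, Alg1 and Dpm3); Magt1, an oxidoreductase subunit of the oligosaccharyltransferase, changed by a log2 change of 1.62, and Alg2, a mannosyltransferase, by 1.16. Onward transport differed: of 45 coat genes of COPII and COPI, 12 rose and 11 fell. Sec16b, a scaffold of ER exit sites, stood at 20.96, 21.7, 20.3 and 14.1 CPM untreated and 4.45, 6.32 and 4.43 CPM starved, and Tmed7 and Tmed2, cargo receptors, rose with a log2 change of 0.87 and 0.70. For COPII and COPI transport, falls numbered 3 to 6 without WT-NT 1 or any 1 starved library. For N-glycan synthesis and transfer, falls numbered 1 without WT-GS 1 or WT-GS 2. Alg1 lost its call without any 1 starved library, and Dpm3 lost its call without WT-GS 1, WT-GS 2 or WT-NT 3.

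The sensors and factors of the unfolded protein response changed unevenly. Of 13 tested 7 rose and 2 fell (Creb3l1 and Creb3l3). Atf6 rose with a log2 change of 1.55, Ern1, which encodes IRE1, with 0.92, and Mbtps2, the protease that releases ATF6, with 0.65. Wfs1, an ER membrane protein induced by this response, rose from 35.2 ± 2.78 to 78.9 ± 1.84 CPM. Bhlha15 (Mist1), a factor of secretory cells, stood at 0.0957, 0.135, 0.108 and 0.200 CPM in the untreated and 4.02, 3.35 and 3.35 CPM in the starved libraries (log2 change 4.75 ± 0.31, edgeR adjusted p = 0.000131). Creb3l1 (OASIS), an ER-bound factor that drives collagen genes, went the other way, at 187, 189, 185 and 123 CPM in normal and 43.9, 54.5 and 50.5 CPM in glucose-free medium (log2 change -1.74 ± 0.18, edgeR adjusted p = 0.000583), with the groups apart. Secreted factors known to be stress-induced also rose: 10 of 19 rose, all by at least 2-fold, and 3 fell (Angptl4, Il6 and Il1rn), and the share of counts was 3.21 times that of untreated cells. Stc2, a secreted stanniocalcin, stood at 9.05, 11.4, 9.66 and 9.52 CPM untreated and 39.9, 37.8 and 31.97 CPM starved, Nucb2, the precursor of nesfatin, rose with a log2 change of 1.95, and Angptl6 with 2.31. Creld2 and Manf, already described among the ER genes, stand in this list too, so its gain in share is in part theirs. Creld2 went from 47.0 ± 8.99 to 428 ± 88.5 CPM. Creb3l3 kept its call only without WT-NT 4 and WT-GS 2, and Angptl4 kept its call only without WT-GS 2.

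The promoters of these genes were searched for motifs written for each pathway, on both strands. Sequences are from RefSeq's table for GRCm38.p6, another build than the mm9 named by the submitters; 11858 of the 15263 tested genes matched the table by symbol. A match is a description of these letters, not a site that was tested. The motifs were written for pathways whose known genes fill the lists, so a high share there is no independent evidence. The ER stress element ERSE, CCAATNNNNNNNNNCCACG, was found in 0.119% of 32851 promoters of 300 bases (250 before the start site and 50 after) and in 0.137% of the 27025 genes they belong to. Of the 160 matched ER genes tested, from 6 lists, 11 held it (6.88%), and all 11 were among the 77 that rose (14.3%): Calr, Canx, Creld2, Dnajc3, Hsp90b1, Hspa5, Ero1lb, Pdia6, Derl3, Syvn1 and Alg12. Of the 18 that fell, 0 held it, which tells little beside a share of 6.88% among all matched ER genes. The related ERSE-II, ATTGGNCCACG, was found in 0.0365% of promoters and in Dnajb11 and Herpud1 among the genes that rose. Here 3 promoters are shown: that of Hspa5 as the standard case, that of Derl3, and that of Herpud1 as a degradation gene with ERSE-II. Derl3 had the largest rise among called genes with at least 20 CPM in the higher group and no overlap. Capitals mark the match, and each run is the 250 bases before the start site, 5′ to 3′ on the strand of the gene.
Hspa5: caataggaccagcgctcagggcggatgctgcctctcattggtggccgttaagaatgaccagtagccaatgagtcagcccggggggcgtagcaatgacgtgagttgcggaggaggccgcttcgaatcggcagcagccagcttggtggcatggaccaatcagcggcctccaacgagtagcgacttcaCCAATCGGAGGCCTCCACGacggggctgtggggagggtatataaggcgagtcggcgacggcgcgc
Derl3: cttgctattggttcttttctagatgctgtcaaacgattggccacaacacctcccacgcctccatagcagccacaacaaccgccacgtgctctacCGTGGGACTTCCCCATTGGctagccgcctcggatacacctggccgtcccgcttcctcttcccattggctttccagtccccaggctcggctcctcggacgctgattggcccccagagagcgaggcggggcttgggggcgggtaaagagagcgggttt
Herpud1: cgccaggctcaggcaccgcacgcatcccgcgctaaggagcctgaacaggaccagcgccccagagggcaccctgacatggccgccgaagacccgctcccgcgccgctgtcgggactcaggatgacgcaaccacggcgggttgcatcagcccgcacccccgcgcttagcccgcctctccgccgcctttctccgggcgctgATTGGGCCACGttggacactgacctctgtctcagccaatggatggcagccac
These lie at chr2:34771840-34772089, chr10:75893148-75893397 and chr8:94386179-94386428, all on the plus strand. The match begins 65 bases before the start site in Hspa5 and 52 in Herpud1, and 156 before it in Derl3, where it reads on the opposite strand. A gapped CCAAT and CCACG pair is thus present in the promoters of both Hspa5, which rose 5.07-fold in the fit, and Derl3, whose fitted change was 273-fold. The part of the pair in these changes was not tested.

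The ATF4 branch and its amino acid genes rose in part. Of 20 regulators 8 rose and 4 fell (Atf5, Ddit4, Sesn2 and Eif2ak4). Ddit3 (CHOP), a factor of prolonged ER stress, stood at 78.5, 104, 77.7 and 101.1 CPM in the untreated and 596, 445 and 436 CPM in the starved libraries (log2 change 2.49 ± 0.16, edgeR adjusted p = 0.000129), Ppp1r15a (GADD34), which restores eIF2 activity, rose with 1.72, Nupr1, a stress-induced chromatin protein, with 1.03, and Atf3 with 1.70. Falls in this list numbered 1 to 2 without WT-NT 3 or any 1 starved library. In serine, one-carbon and amino acid synthesis 11 of 23 rose and 0 fell. Rises in this list numbered 5 to 6 without WT-GS 1 or WT-GS 3. Got1, the cytosolic aspartate aminotransferase, was the most even, at 70.3, 66.4, 68.2 and 71.6 CPM in normal and 187, 186 and 183 CPM in glucose-free medium (log2 change 1.46 ± 0.06, edgeR adjusted p = 6.59e-05). Psph and Phgdh, enzymes of serine synthesis, rose with a log2 change of 0.98 and 0.75, and Mthfd2, of mitochondrial one-carbon metabolism, with 0.72. Among amino acid transporters 7 of 26 rose and 5 fell (Slc7a11, Slc1a3, Slc1a5, Slc38a4 and Slc43a2). Slc6a9 (glycine) rose with a log2 change of 1.63, Slc7a3 and Slc7a1 (cationic amino acids) with 1.76 and 1.29, while Slc1a3 (glutamate) stood at 22.7, 29.6, 21.9 and 24.7 CPM untreated and 5.22, 3.88 and 3.89 CPM starved. Here, rises numbered 11 without WT-NT 4, and falls numbered 3 without WT-NT 1 or any 1 starved library. Ddit4 lost its call without WT-GS 3, and Atf5 lost its call without WT-NT 3 or any 1 starved library. Slc7a11 lost its call without WT-NT 1 or any 1 starved library, and Eif2ak4 and Slc43a2 kept their calls only without WT-NT 2 and WT-NT 4.

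Transfer RNA synthetases rose in 11 of 20 cases. Wars stood at 122, 119, 123 and 118 CPM in the untreated and 352, 286 and 344 CPM in the starved libraries (log2 change 1.48 ± 0.09, edgeR adjusted p = 0.000122), and Sars rose with 0.60. Mars, the methionyl enzyme, fell, at 166, 174, 147 and 131 CPM in normal and 67.1, 88.01 and 88.1 CPM in glucose-free medium, with the groups apart. Of 40 translation initiation factors 17 rose and 2 fell (Eif2b4 and Eif5b), with Eif2a and Eif4b at a log2 change of 1.06 and 1.04, and of 49 ribosome assembly factors 20 rose and 1 fell (Bop1), none of them 2-fold, as with Pno1 (0.67) and Utp14a (0.86). For transfer RNA synthetases, rises numbered 7 without WT-GS 1 or WT-GS 3. For ribosome assembly, rises numbered 11 to 12 without WT-GS 1 or WT-GS 3. For translation initiation factors, falls numbered 0 to 1 without WT-NT 1, WT-NT 3 or any 1 starved library and 5 without WT-NT 4. Bop1 lost its call without WT-GS 1 or WT-GS 3, and Eif2b4 lost its call without WT-NT 1 or any 1 starved library. Eif5b kept its call only without WT-NT 2 and WT-NT 4. The ATF4 motif searched, TGATGNAA on both strands, was found in 4.51% of all genes with a promoter sequence, in 16 of the 69 matched genes tested (23.2%) and in 9 of the 30 that rose among the ATF4 regulators, amino acid synthesis, transporters and synthetases (30%): Asns, Atf3, Gars, Got1, Iars, Nupr1, Slc1a4, Trib3 and Yars. Of these, Gars and Yars kept their call only without WT-NT 2 and WT-NT 4, Iars lost it without WT-NT 3 or any 1 starved library, Trib3 without WT-NT 1, WT-GS 1 and WT-GS 3, and Asns without WT-GS 3. Slc7a11, which fell with a log2 change of -0.50, also held it, and its call was lost without WT-NT 1 or any 1 starved library. The promoter of Got1 is shown because it is the member with the smallest p and a match, in capitals, here on the opposite strand and 102 bases before the start site (chr19:43524606-43524855, minus strand).
Got1: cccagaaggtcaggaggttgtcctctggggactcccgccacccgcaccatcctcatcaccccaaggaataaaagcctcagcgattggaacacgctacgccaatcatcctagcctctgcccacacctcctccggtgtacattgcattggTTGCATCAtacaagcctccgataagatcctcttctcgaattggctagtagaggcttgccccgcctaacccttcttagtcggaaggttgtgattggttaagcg

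Genes tied to glucose itself moved in a few steep steps. Beside Txnip, its relative Arrdc4, also known to be driven by glucose, stood at 19.99, 17.2, 21.00 and 23.7 CPM untreated and 3.82, 4.85 and 3.93 CPM starved (log2 change -2.24 ± 0.15, edgeR adjusted p = 0.000151), while Arrdc2, Arrdc3 and Mlxip of the same list of 9 were not called (log2 changes of -0.51, -0.21 and -0.17). Klf10 rose slightly (log2 change 0.35), and of the 7 fits without a library its call was kept in 2, those without WT-NT 4 and WT-GS 1. The carbohydrate response element searched, CACGNNNNNNNNNCGTG, was in 0.28% of promoters and in 0 of the 8 matched genes of this list. Another form, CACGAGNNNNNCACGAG, with more fixed letters and written after the Txnip promoter had been read and so no evidence of its own, was found in that promoter alone. It is printed because Txnip had the largest fall among genes with at least 20 CPM in the higher group and no overlap; capitals mark the match, 85 bases before the start site (chr3:96557707-96557956, plus strand).
Txnip: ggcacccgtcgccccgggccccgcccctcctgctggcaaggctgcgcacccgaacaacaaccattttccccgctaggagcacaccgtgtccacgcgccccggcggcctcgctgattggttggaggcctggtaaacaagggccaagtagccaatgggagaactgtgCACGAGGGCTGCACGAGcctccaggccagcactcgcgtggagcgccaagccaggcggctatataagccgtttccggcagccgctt

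Glucose transport and glycolysis showed no common direction: 8 of 33 rose and 3 fell (Aldoc, Pgam2 and Eno3). Slc2a6, a lysosomal hexose transporter, stood at 8.90, 9.40, 12.3 and 7.16 CPM in the untreated and 40.3, 29.00 and 33.7 CPM in the starved libraries (log2 change 1.91 ± 0.20, edgeR adjusted p = 0.000636). Slc2a1 (GLUT1), the main glucose transporter of fibroblasts, rose from 124 ± 20.5 to 216 ± 31.8 CPM, Slc16a1, a lactate and pyruvate carrier, with a log2 change of 0.87 and Pgk1, a kinase of glycolysis, with 0.63, while Aldoc, an aldolase, fell with -1.70. Here, rises numbered 4 to 5 without WT-GS 2, WT-GS 3 or WT-NT 1, and falls numbered 1 without WT-GS 3 and 6 without WT-NT 4 or WT-GS 2. In the pentose phosphate and pyruvate list G6pdx and Pgd, the NADPH-making dehydrogenases, fell with -1.12 and -0.68, and Pdha1, of pyruvate dehydrogenase, rose with 0.41. Hexosamine and UDP-sugar genes rose in 10 of 28 cases and fell in 4, with Pgm1, Mgea5 and Gmppa among the falls: Gnpnat1, which acetylates glucosamine phosphate, rose with a log2 change of 1.17, Ogt, which adds the sugar to proteins, with 0.55, and Mgea5, which removes it, fell with -0.52. Pygb, a glycogen phosphorylase, fell with a log2 change of -1.26. Genes known as hypoxia targets rose in 13 of 22 cases and fell in 2 (Hif1a and Ppp1r3c), with a median of 0.54; Ndrg1 stood at 45.9, 49.6, 47.9 and 54.6 CPM in normal and 102, 93.8 and 102 CPM in glucose-free medium, Bnip3 and Bnip3l, mitophagy receptors, rose with a log2 change of 1.28 and 0.85, and Ankrd37 with 1.09. Ero1l, P4ha1, Pdk1, Pfkfb3 and Slc2a1 stand in this list and in others. The call of Pfkfb3 was lost without WT-GS 2. For hexosamine and UDP-sugar genes, falls numbered 2 without WT-GS 3. For hypoxia targets, falls numbered 0 to 1 without any 1 starved library and 4 without WT-NT 4. Eno3 and Hif1a lost their calls without WT-GS 1 or WT-GS 3, and Pgam2 lost its call without WT-GS 2 or WT-GS 3. Ppp1r3c lost its call without any 1 starved library, and Gmppa kept its call only without WT-NT 2 and WT-NT 4.

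Sterol synthesis fell nearly throughout. Of 27 genes 24 fell, 20 of them by at least 2-fold, with a median log2 change of -1.64, and 21 falls were stable. Cyp51, which demethylates lanosterol, stood at 234, 252, 211 and 272 CPM untreated and 38.8, 43.5 and 40.9 CPM starved (log2 change -2.52 ± 0.11, edgeR adjusted p = 6.59e-05), and Nsdhl, which acts after it, at 68.5, 72.6, 56.4 and 82.96 CPM in the untreated and 14.5, 15.3 and 14.8 CPM in the starved libraries (log2 change -2.19 ± 0.13, edgeR adjusted p = 0.000112). In both the 3 starved libraries lay close together and far under the lowest untreated one. Insig1, the sterol-regulated retention protein of SREBP, fell with a log2 change of -2.05, and Lss, which makes lanosterol, with -2.005. Insig2, the second retention protein, rose (log2 change 0.43), its call being lost without WT-GS 1 or WT-GS 2, and Ebp and Scap were not called (0.08 and -0.22). The list took 0.314 ± 0.0321% of untreated and 0.106 ± 0.00499% of starved counts. In fatty acid synthesis and desaturation 11 of 24 fell, 10 of them stably, and 5 rose (Fads3, Elovl3, Elovl4, Elovl7 and Ptplad1). Rises in this list numbered 3 without WT-GS 1. Fads2 stood at 123, 119.7, 107 and 104 CPM in normal and 14.5, 20.4 and 16.4 CPM in glucose-free medium (log2 change -2.69 ± 0.14, edgeR adjusted p = 6.95e-05), Fads1, its partner desaturase, fell with -1.76, Elovl6, an elongase, with -2.35, Fasn with -1.23 and Acly, which makes cytosolic acetyl-CoA, with -1.06. The sterol response element TCACNCCAC was found in 1.24% of all promoters and in 0 of the 38 matched members of both lists, which says only that these letters are not in these windows. In the LXR list Lpcat3 fell (log2 change -0.97), and Abca5 and Abca2, lipid transporters, rose (1.41 and 0.87). Ptplad1 lost its call without WT-GS 1, and Elovl7 lost its call without any 1 starved library.

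Genes of mitosis fell together. Of 62 tested, 53 fell and 0 rose, with a median of -1.01; 31 fell by at least 2-fold and 47 falls were stable. Plk1, a kinase of mitotic entry, stood at 49.5, 56.1, 50.7 and 32.2 CPM untreated and 5.78, 8.75 and 7.82 CPM starved (log2 change -2.62 ± 0.24, edgeR adjusted p = 0.000404), and Kif20a, a kinesin of cytokinesis, at 110.4, 109, 94.8 and 101.4 CPM in the untreated and 21.3, 30.5 and 26.6 CPM in the starved libraries (log2 change -1.95 ± 0.13, edgeR adjusted p = 0.00016). Bub1b, of the spindle checkpoint, fell with a log2 change of -1.98, Ccnb1, cyclin B1, with -1.54, Aurka with -1.68 and Nuf2, of the kinetochore, with -1.15. The CHR element TTTGAA, short enough to occur often, was in 20.2% of all genes with a promoter sequence, in 35 of the 53 matched mitosis genes tested (66%) and in 30 of the 45 among them that fell (66.7%). The promoter of Cdc20, an activator of the anaphase-promoting complex, is shown because its match (capitals) lies upstream, 18 bases before the start site (chr4:118437344-118437593, minus strand); the gene went from 63.8 ± 13.5 to 16.2 ± 2.46 CPM.
Cdc20: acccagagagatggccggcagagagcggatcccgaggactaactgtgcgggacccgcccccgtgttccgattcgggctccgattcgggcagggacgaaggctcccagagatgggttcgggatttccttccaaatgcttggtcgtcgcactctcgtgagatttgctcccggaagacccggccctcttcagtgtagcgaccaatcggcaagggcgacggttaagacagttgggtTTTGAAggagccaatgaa
Genes of G1 and of DNA replication changed less. In the G1 list 8 of 27 fell and 1 rose (E2f3), with Ccnd3 (cyclin D3) at a log2 change of -0.83 and also the cell-cycle inhibitors Cdkn1b (p27) at -0.54 and Cdkn2c at -0.94. Of 47 replication genes 14 fell and 2, Orc2 and Orc4 of the origin recognition complex, rose (log2 change 0.49 and 0.68). Tyms, thymidylate synthase, stood at 51.5, 54.03, 48.6 and 39.04 CPM in normal and 20.2, 22.4 and 22.8 CPM in glucose-free medium (log2 change -1.11 ± 0.13, edgeR adjusted p = 0.00108). Mcm5, of the replicative helicase, stood at 100.3, 103, 95.3 and 53.3 CPM untreated and 36.7, 39.4 and 42.6 CPM starved, and WT-NT 4 was the lowest untreated library by a wide margin. For DNA replication, falls numbered 4 to 7 without WT-NT 1, WT-NT 3 or any 1 starved library and 30 without WT-NT 4. For G1 cyclins, CDKs and inhibitors, rises numbered 0 without WT-GS 2 or WT-GS 3 and 2 to 3 without WT-NT 1 or WT-NT 4. E2f3 lost its call without WT-GS 2 or WT-GS 3.

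Among matrix genes falls outnumbered rises in each list but that of integrins. Of 37 collagens 16 fell, 11 of them at least 2-fold, and 1, Col20a1, rose (log2 change 1.23). Col6a1, of beaded microfibrils, stood at 1429, 1772, 1410.0 and 1679.7 CPM in the untreated and 568, 441 and 505 CPM in the starved libraries (log2 change -1.60 ± 0.14, edgeR adjusted p = 0.000348); Col6a2 fell with a log2 change of -1.69 and Col27a1 with -2.24. Rises in this list numbered 7 without WT-NT 4. Of 24 elastic fibre and microfibril genes 12 fell and 0 rose. Fbln1 (fibulin-1) changed by a log2 change of -1.31, Emilin1 by -2.06 and Fbn2 (fibrillin-2) by -2.35. Of 12 small leucine-rich proteoglycans 7 fell and 0 rose; Aspn and Ogn fell with a log2 change of -2.21 and -2.54. Among enzymes of collagen hydroxylation and cross-linking 4 of 24 rose (P4ha1, Leprel1, Lox and Pcolce2) and 9 fell, so that Leprel1 and P4ha1 (prolyl 4-hydroxylase, 0.64) rose while Loxl1 (lysyl oxidase-like, -1.26) and Adamts2 and Pcolce, of procollagen processing (log2 change -1.13 and -0.97), fell. Matrix proteases fell in 14 of 37 cases and rose in 1 (Timp1): Plat and Plau, the plasminogen activators, with a log2 change of -2.32 and -1.78, and Mmp14 with -1.04. Among integrins 6 of 18 rose and 3 fell (Itga9, Itga11 and Itgb8); Itga6, a laminin receptor, rose with a log2 change of 1.13 and Itga11, a collagen receptor, fell with -0.88. For elastic fibre and microfibril genes, falls numbered 7 without WT-GS 3. For small leucine-rich proteoglycans, falls numbered 4 without WT-GS 3. For collagen hydroxylation and cross-linking, falls numbered 5 without WT-GS 3, and rises numbered 2 without WT-GS 2 or WT-GS 3. For matrix proteases and inhibitors, falls numbered 9 without WT-GS 1, and rises numbered 2 to 7 without WT-NT 2, WT-NT 4 or WT-GS 1. For integrins, rises numbered 3 without WT-GS 1 or WT-GS 3. Pcolce2 lost its call without WT-GS 2 or WT-GS 3, and Lox kept its call only without WT-NT 4.

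Some fibroblast identity markers were part of this fall. Of 15 markers, written to check the label, 8 fell, 0 rose and 7 were not called. The list took 3.62 ± 0.358% of untreated and 1.43 ± 0.0329% of starved counts. Most of that share, and of its loss, was that of Col1a1, Col1a2 and Col3a1, already counted among the collagens. Their means went from 11853 to 2733, from 12111 to 4470 and from 5319 to 1423 CPM. Prrx1, a mesenchymal homeobox factor, stood at 611, 630.3, 611 and 735 CPM in normal and 270.3, 242 and 237 CPM in glucose-free medium (log2 change -1.33 ± 0.10, edgeR adjusted p = 0.000221), Pdgfra, the PDGF receptor of fibroblasts, at 142, 162, 153 and 241 CPM untreated and 55.6, 54.1 and 40.4 CPM starved, and Thy1 at 1190.3, 1146, 945 and 950.3 CPM in the untreated and 515, 568 and 574 CPM in the starved libraries. All 3 were well above the limit that a count of 0 allows in every library, and so were the collagens given above, which stand in this list too. The labelled cell type thus has its defining markers in all 7 libraries. The marker lists of other cell types took smaller shares of the counts, which also depend on gene length and on the genes chosen. The highest were those of 12 smooth muscle and pericyte markers, several of which cultured fibroblasts are known to express too, at 0.801 ± 0.183% of untreated and 0.810 ± 0.185% of starved counts, with the highest share, 0.994%, in WT-GS 2 and the lowest, 0.560%, in WT-NT 4. Of these 12, 6 fell (Smtn, Lmod1, Rgs5, Notch3, Mcam and Kcnj8) and 2 rose (Tagln and Cspg4), while Acta2, smooth muscle actin, was not called (log2 change -0.37). For smooth muscle and pericyte markers, falls numbered 2 to 3 without WT-NT 2, WT-NT 3, WT-GS 1 or WT-GS 3. The 18 macrophage markers summed to 0.113, 0.0349, 0.232 and 0.0696% of counts in the untreated libraries and 0.0389, 0.00141 and 0.0320% in the starved ones, in the same order. These sums overlap between groups and were highest in WT-NT 3 and lowest in WT-GS 2, where Cx3cr1, a chemokine receptor of macrophages, was at 0.0502 CPM against 143 CPM in WT-NT 3. Of the 18, 4 fell (Cd68, Cd14, Ccr2 and F13a1) and 0 rose, and 1 fall, that of F13a1, was stable. The log2 changes of all 18 were negative, called or not, with a median of -2.62. Falls in this list numbered 1 without WT-NT 1, WT-NT 3 or any 1 starved library. In WT-GS 2, 2 of the 18 were listed at 0 (Tyrobp and Ccr2), and in every other library 0. The part of these cells in the falls of Coro1a, Fmnl1 and F13a1 was not tested. Skeletal muscle markers were low, at 0.0112 ± 0.00265% of counts untreated and 0.0168 ± 0.00778% starved, with Myh3, embryonic myosin, at 1.59, 1.82, 4.23 and 0.634 CPM in normal and 0.141, 0.151 and 0.188 CPM in glucose-free medium; 8 of 17 fell and 2 rose (Acta1 and Chrna1). For skeletal muscle markers, falls numbered 5 without WT-GS 2, WT-GS 3 or WT-NT 3. For fibroblast markers, rises numbered 2 without WT-NT 4. Of 9 endothelial markers 0 were called by edgeR, and Pecam1 lay between 0 and 1.65 CPM in all libraries. Of 9 epithelial markers 1 rose, Krt19 (log2 change 1.33), and 1 fell, Cdh1 (-3.37), the latter a call lost without WT-NT 1, WT-NT 3 or any 1 starved library. Rises in this list numbered 2 to 3 without WT-NT 2 or WT-NT 4. In the list of neural and glial genes, 3 of 13 rose (Map2, Stmn2 and Mbp) and 2 fell (Gfap and S100b); Gfap, of astrocytes, stood at 3.21, 1.10, 5.85 and 1.36 CPM untreated and 0.141, 0.284 and 0.129 CPM starved, and Mbp, of myelin, rose with a log2 change of 1.42. Rises in this list numbered 1 without WT-GS 1, WT-GS 3 or WT-NT 1. Map2 and Lmod1 lost their calls without WT-GS 1, WT-GS 3 or WT-NT 1, and Stmn2 lost its call without WT-NT 1, WT-NT 2, WT-GS 1 or WT-GS 3. Tagln lost its call without WT-NT 1, WT-NT 3, WT-GS 2 or WT-GS 3, and Acta1 kept its call only without WT-NT 1 and WT-GS 1. Cd14 and Ccr2 kept their calls only without WT-NT 2 and WT-NT 4, and Kcnj8 kept its call only without WT-NT 1 and WT-NT 4. S100b kept its call only without WT-NT 4 and WT-GS 2, and Cd68 kept its call only without WT-NT 2. Mcam kept its call only without WT-NT 4, and Notch3 kept its call only without WT-NT 1.

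In both lists of immune signalling falls outnumbered rises. Of 25 chemokines and their receptors 9 fell, all at least 2-fold, and 1 rose, with a median of -1.34. Cxcl12, the stromal chemokine, stood at 502, 521, 369 and 385 CPM in the untreated and 136, 105 and 112 CPM in the starved libraries (log2 change -1.88 ± 0.17, edgeR adjusted p = 0.000401), and Cx3cl1 at 101.2, 135, 102 and 48.6 CPM in normal and 13.2, 10.5 and 17.2 CPM in glucose-free medium (log2 change -2.78 ± 0.37, edgeR adjusted p = 0.00155). Cxcl10 fell with a log2 change of -2.95, and Ackr3, a scavenger receptor of Cxcl12, rose with 1.69. Of 50 interferon-responsive genes 17 fell and 2 rose (Ifit2 and B2m). Falls in this list numbered 10 to 11 without WT-GS 2 or WT-GS 3. Ifitm3 stood at 236, 246, 237 and 206 CPM untreated and 106, 79.1 and 87.6 CPM starved (log2 change -1.31 ± 0.12, edgeR adjusted p = 0.000459), Irf1 fell with -0.92 and Tap2, a peptide transporter, with -0.71; Ifitm2 (log2 change -0.93) and H2-K1 (-0.89) belong to families of similar genes whose reads may be divided. Macrophage markers, whose sums are given above, were lower on average in starved libraries too, and their part in these falls was not tested. B2m and Ifit2 kept their calls only without WT-NT 4.

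Ligands, receptors and early-response factors changed gene by gene. Among growth factors and receptor kinases 8 of 40 rose and 9 fell. Bdnf, a neurotrophin, stood at 31.3, 30.3, 25.5 and 32.2 CPM in the untreated and 107, 106 and 106 CPM in the starved libraries (log2 change 1.88 ± 0.09, edgeR adjusted p = 6.59e-05), and Ereg, an EGF receptor ligand, at 36.2, 40.4, 38.5 and 20.6 CPM in normal and 120.3, 176 and 148 CPM in glucose-free medium (log2 change 2.17 ± 0.24, edgeR adjusted p = 0.000847). Hgf stood at 16.3, 13.4, 21.4 and 20.2 CPM untreated and 5.16, 4.68 and 4.54 CPM starved, and Angpt2 and Nrg1 fell with a log2 change of -2.28 and -1.35. Rises in this list numbered 4 to 5 without WT-NT 1, WT-NT 2 or any 1 starved library and 14 without WT-NT 4. In the TGF-beta list Grem1, a BMP antagonist, rose from 152 ± 33.1 to 519 ± 144 CPM, and Tgfb3 fell from 366 ± 64.7 to 126 ± 24.3 CPM. Of 41 Wnt genes 12 fell and 4 rose (Wnt7a, Wnt11, Fzd7 and Fzd9), with the receptors Fzd1 and Fzd2 at -1.65 and -1.24 and Ror2 at -0.98, all of them falls, while Wnt7a, a ligand, stood at 0.260, 0, 0.122 and 0.0222 CPM in the untreated and 7.58, 16.6 and 9.57 CPM in the starved libraries. Falls in this list numbered 5 without WT-GS 3, and rises numbered 2 without WT-GS 1 or WT-GS 2. Hey2 and Heyl, related Notch-responsive factors, went opposite ways, with log2 changes of 2.31 and -2.69. Irs1, an adaptor of insulin and IGF receptors, fell with a log2 change of -1.46, and Igfbp5 stood at 416, 315, 567 and 793 CPM in normal and 127, 107 and 97.4 CPM in glucose-free medium. Of early-response factors, Klf4 stood at 44.4, 68.9, 43.2 and 83.1 CPM untreated and 263, 273 and 288 CPM starved (log2 change 2.24 ± 0.23, edgeR adjusted p = 0.000608), Dusp4 and Dusp1, phosphatases of MAP kinases, rose with 1.91 and 1.17, and Zfp36l1, an RNA decay factor, fell with -1.12. Among 27 imprinted growth genes 8 fell and 2 rose (Snrpn and Sgce), with Peg3 at a log2 change of -1.96 and Meg3 and Rian, noncoding transcripts of the Dlk1-Dio3 cluster, at -0.98 and -0.82. Falls in this list numbered 5 without WT-GS 1, and rises numbered 0 to 1 without WT-NT 1, WT-NT 3 or any 1 starved library and 6 without WT-NT 4. Of 37 Hox genes 14 fell, such as Hoxb8 (-0.84), and 2 rose, Hoxc13 among them (from 0.688 ± 0.334 to 1.89 ± 0.754 CPM), its call being lost without WT-NT 3 or any 1 starved library. Falls in this list numbered 5 to 8 without WT-NT 3 or any 1 starved library, and rises numbered 1 without WT-NT 3 or any 1 starved library. Fzd9 lost its call without WT-GS 1 or WT-GS 2, and Sgce lost its call without WT-NT 1, WT-NT 3, WT-GS 1 or WT-GS 3. Snrpn kept its call only without WT-NT 2 and WT-NT 4, and Fzd7 kept its call only without WT-NT 4.

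Among catabolic and mitochondrial lists, the share called higher was above the 16.8% of all genes for autophagy and below it for the proteasome and respiratory chain. Of 36 autophagy genes 16 rose and 1 fell (Atg9a); Atg13, of the initiating kinase complex, stood at 34.2, 35.02, 34.8 and 39.5 CPM in the untreated and 88.3, 76.8 and 86.1 CPM in the starved libraries (log2 change 1.27 ± 0.09, edgeR adjusted p = 0.000155), Atg12 rose with 0.86 and Becn1 with 0.41. Of 44 lysosome genes 11 rose and 3 fell (Tfeb, Gusb and Atp6v0a1). Mcoln1, a lysosomal calcium channel, rose with a log2 change of 0.95, and Atp6v0a1 and Gusb, a proton pump subunit and a hydrolase, fell with -0.75 and -0.93. For the autophagy machinery, rises numbered 10 without WT-GS 1. For the lysosome, rises numbered 3 to 7 without WT-NT 1, WT-NT 3 or any 1 starved library and 26 without WT-NT 4. Of 32 proteasome subunits 2 rose (Psmc6 and Psmd11) and 4 fell (Psmc3, Psmd1, Psmd3 and Psmd13). Of 68 respiratory chain subunits 2 rose (Ndufa10 and Atp5g2) and 3 fell (Atp5a1, Atp5k and Atp5g3), and of 30 fatty acid oxidation genes 6 rose and 6 fell. Among p53 targets 5 of 27 rose (Mdm2, Gadd45a, Rrm2b, Tnfrsf10b and Polk) and 4 fell (Sesn1, Btg2, Ddit4 and Trp53inp2), and Gadd45a, a growth arrest protein, stood at 29.6, 44.2, 41.01 and 42.6 CPM in normal and 111, 87.04 and 91.8 CPM in glucose-free medium. In the energy-kinase list Depdc5, a brake on mTORC1, fell with a log2 change of -0.99, Camkk2, a kinase upstream of AMPK, with -1.08, and Prkaa2, the AMPK alpha2 subunit, rose with 1.67. Sirt1 stood at 22.96, 22.6, 23.1 and 22.3 CPM untreated and 37.6, 34.8 and 34.3 CPM starved (log2 change 0.69 ± 0.08, edgeR adjusted p = 0.000787), with the groups apart, and Sirt7 was not called (-0.19, edgeR adjusted p = 0.233). Of the heat shock list 8 of 32 rose and 5 fell (Hspa1a, Hspa1b, Hsph1, Dnaja1 and Bag3), the first 2 being near-identical copies whose reads may be divided, with the cytosolic Hspa8 at a log2 change of 0.84. Of 28 NRF2 genes 3 rose (Hmox1, Gclc and Sod2), Hmox1, which breaks down heme, with a log2 change of 0.60, and 8 fell. For the proteasome, falls numbered 0 to 1 without WT-NT 1 or any 1 starved library and 8 without WT-NT 4. For the respiratory chain, rises numbered 0 to 1 without WT-NT 1, WT-NT 3 or any 1 starved library and 7 without WT-NT 2, and falls numbered 0 to 1 without WT-NT 1 or any 1 starved library and 7 without WT-NT 4. For fatty acid oxidation, rises numbered 0 without WT-NT 1, WT-NT 3 or any 1 starved library, and falls numbered 1 to 3 without WT-NT 1, WT-NT 3 or any 1 starved library. For p53 target genes, rises numbered 13 without WT-NT 4, and falls numbered 2 without WT-GS 2 or WT-GS 3. For cytosolic heat shock proteins, falls numbered 1 to 3 without any 1 starved library and 8 without WT-NT 4. For NRF2 antioxidant genes, rises numbered 1 without WT-NT 3 or any 1 starved library, and falls numbered 2 to 5 without WT-NT 1, WT-NT 3 or any 1 starved library. Ddit4 and Hsph1 lost their calls without WT-GS 3, and Rrm2b lost its call without WT-GS 1. Bag3 lost its call without WT-GS 1 or WT-GS 3, and Dnaja1 and Sesn1 lost their calls without WT-GS 2 or WT-GS 3. Atg9a, Hspa1a, Psmd3 and Tfeb lost their calls without any 1 starved library, and Atp5k lost its call without WT-GS 1, WT-GS 3 or WT-NT 1. Psmd11 lost its call without WT-GS 2, WT-GS 3 or WT-NT 3, and Gclc lost its call without WT-NT 3 or any 1 starved library. Ndufa10 lost its call without WT-NT 1, WT-NT 3, WT-GS 1 or WT-GS 3, and Psmc3 and Psmd13 lost their calls without WT-NT 1 or any 1 starved library. Atp5g2, Atp5g3, Psmd1 and Sod2 kept their calls only without WT-NT 2 and WT-NT 4, and Btg2 kept its call only without WT-NT 4 and WT-GS 3. Atp5a1 kept its call only without WT-NT 4.

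**Figure D4:**
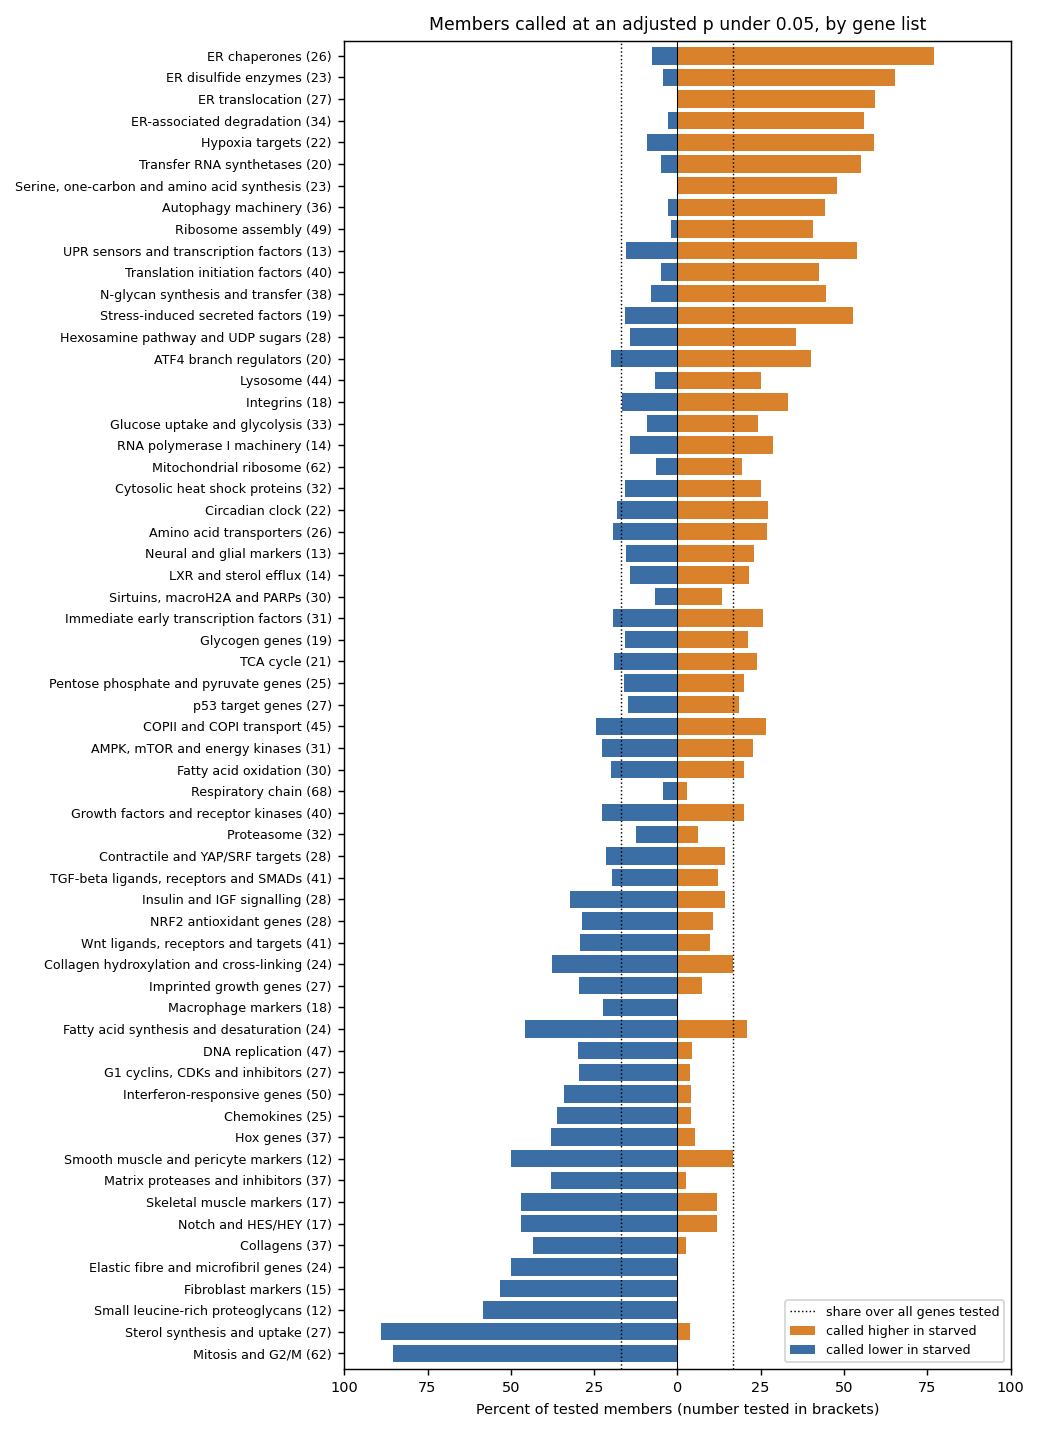
Percent of tested members called higher (orange, to the right) and lower (blue, to the left) in starved wild-type cells, for each list with at least 12 tested members; dotted lines give the shares over all genes tested, 16.8% and 17%. ER chaperones reach farthest to the right (20 of 26), sterol synthesis and mitosis farthest to the left, and the respiratory chain falls short of both lines.

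WT-NT 4 lay apart from its group, and how far apart depended on the pathway. For each library, the genes called in the fit on the other 6 gave an axis with 0 at the mean of the remaining untreated and 1 at the mean of the remaining starved libraries in log2 CPM. WT-NT 4 lay at 0.336 on this axis over 6668 genes, while WT-NT 1, 2 and 3 lay at 0.0691, 0.142 and -0.00419, and WT-GS 1 to 3 at 0.897, 0.916 and 0.943. With genes chosen by the fit on all 7 libraries, in which WT-NT 4 helps to choose them, it lay at 0.116. Of 4059 genes called without it with at least 20 CPM, WT-NT 4 lay beyond the other 3 untreated libraries toward the starved side in 2386 (58.8%), beyond them on the far side in 663 and within their range in 1010. Counted in the same way over the genes called without each of them, WT-NT 1, 2 and 3 lay beyond the others toward the starved side in 19.5, 29.3 and 19.2%.

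In several lists WT-NT 4 lay with its own group. Its position was -0.0788 for ER chaperones, 0.00590 for disulfide enzymes, 0.0726 for ER-associated degradation, -0.0706 for sterol synthesis, 0.0334 for fatty acid synthesis and 0.00514 for transfer RNA synthetases. Txnip, at 151 CPM in WT-NT 4, was also at the level of its group. For serine and amino acid synthesis it lay at -0.211 and for insulin and IGF signalling at -0.462, on the side away from starvation. The position was instead 0.837 for 15 fatty acid oxidation genes, 0.652 for 9 respiratory chain genes and 0.556 for 10 proteasome genes, lists in which fewer than 5 genes were called without WT-NT 1 or WT-NT 3 and no position was set for those. Among lists with a position for all untreated libraries it was 0.810 for 33 DNA replication genes, 0.758 for 18 p53 targets, 0.753 for 30 lysosome genes, 0.592 for 18 early-response factors and 0.519 for 17 energy kinases. In DNA replication WT-NT 1 to 3 lay at -0.183, -0.279 and -0.0198, over 7, 14 and 9 genes. For these the mean set at 0 includes WT-NT 4, so they are not on the same axis as 0.810. Mitosis, at 0.274 over 57 genes, and collagens, at 0.115, lay nearer to 0 than to 1. These positions are descriptions of 1 library, with no test, and what sets it apart was not tested.

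**Figure D5:**
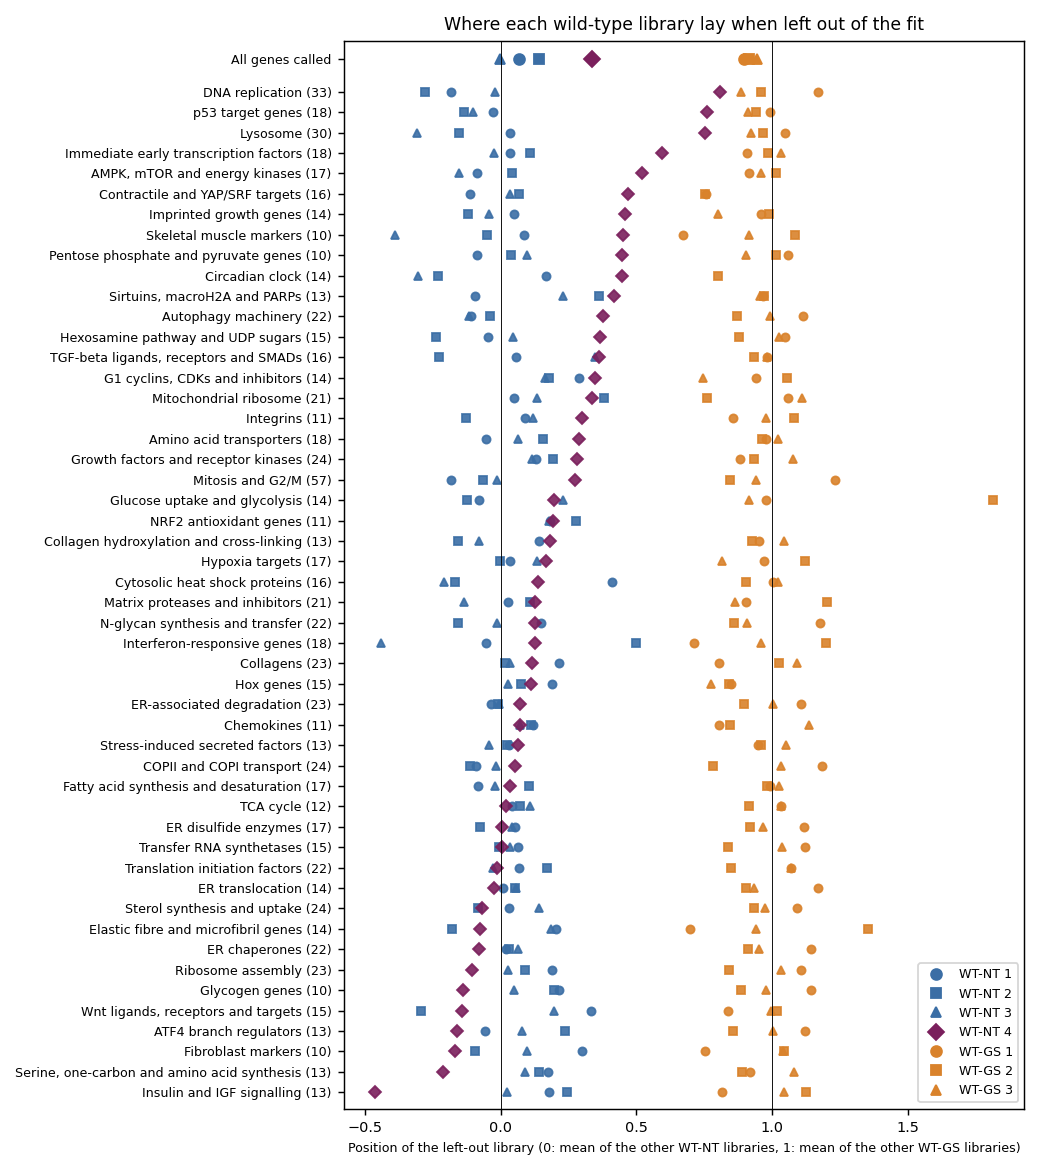
Position of each wild-type library (x axis) along the starvation response, fitted without that library, over all called genes (top) and by list (at least 10 genes for WT-NT 4, in brackets, and a value for all untreated libraries); 0 is the mean of the other untreated and 1 the mean of the other starved libraries. WT-NT 4 (purple diamond) lies near 1 for DNA replication, p53 targets and lysosome and near 0 for ER chaperones and sterol synthesis.

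Among single genes, those in which WT-NT 4 lay farthest from WT-NT 1 to 3 in the direction of the starved libraries were found by rule. Serpinb9b, a protease inhibitor of the serpin family, stood at 18.3, 13.6, 11.2 and 110.3 CPM in the untreated and 182, 183 and 186 CPM in the starved libraries, Perp, a p53-regulated junction protein, at 1.59, 2.83, 0.824 and 17.6 CPM in normal and 28.4, 39.4 and 29.3 CPM in glucose-free medium, and Upk1b, a tetraspanin, at 2.98, 3.78, 1.73 and 26.97 CPM untreated and 23.2, 33.7 and 27.3 CPM starved. None was called with all 7 libraries (edgeR adjusted p = 0.0556, 0.0704 and 0.165), and each was called without WT-NT 4. Prg4, lubricin, stood at 2.82, 10.03, 1.66 and 25.96 CPM in the untreated and 27.98, 31.9 and 18.2 CPM in the starved libraries, with WT-NT 4 within the range of the starved libraries. In the other direction Gjb2, a connexin, stood at 70.8, 74.8, 58.5 and 12.6 CPM in normal and 11.2, 12.1 and 16.9 CPM in glucose-free medium, Tnmd, tenomodulin of tendon cells, at 47.4, 56.4, 47.3 and 11.98 CPM untreated and 7.24, 17.9 and 7.41 CPM starved, and Junb at 20.1, 55.7, 68.5 and 11.7 CPM in the untreated and 8.35, 8.06 and 12.8 CPM in the starved libraries. Gjb2 was called without WT-NT 4 but in no other fit that left out a library, Tnmd only without WT-NT 4 and WT-GS 2, and Junb only without WT-NT 1 and WT-NT 4. Nr4a1, an early-response nuclear receptor, stood at 67.7, 140.5, 100.9 and 22.3 CPM in normal and 24.3, 40.1 and 58.7 CPM in glucose-free medium; WT-NT 4 was below every starved library. Atp6v0c, the membrane ring subunit of the lysosomal proton pump, is a case apart, at 95.7, 133, 120.5 and 1.73 CPM untreated and 80.2, 88.5 and 84.7 CPM starved: WT-NT 4 alone was far below the other 6 libraries. The gene was not called with all 7 (edgeR adjusted p = 0.991) and was called without WT-NT 4.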

How the data were processed

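Total RNA of 14 mouse embryonic fibroblast libraries was prepared with the Illumina TruSeq v2 kit, per the labels' protocols. Per the submitters' processing notes, FastQC 0.11.3, Trimmomatic 0.36, HISAT2 2.1.0, SAMtools, StringTie 1.3.3 and DESeq2 1.18.1 were used with build mm9; their settings, the annotation and strand are not given in the sources used here. The deposited values are estimated counts, written by the authors as whole numbers per gene symbol, and were used as they stand. A date replaces the symbol in 27 entries, and 1112 of the features tested have no gene symbol.

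From these, edgeR 4.0.16 (R 4.3.3) fitted the 7 wild-type libraries with TMM, filterByExpr (minimum count 10, minimum total 15) and the robust quasi-likelihood F-test. Benjamini-Hochberg adjustment ran over all 15263 genes tested. The SE was worked back from the F-test. The script was tested on simulated data. CPM values use each library's total, 59788270 to 89923476. Genes named are the 12 largest rises and falls with at least 20 CPM and no overlap, the 10 largest gains and losses of CPM, the members of each list with the lowest p (6 at most), genes under 0.1 CPM in 1 group and at least 1 CPM in the other, control genes, and 5 genes each way in which WT-NT 4 lay farthest from WT-NT 1 to 3 in the direction of the starved libraries. A few genes that these rules pick are not reported here, though counts include them. Others named in the text were chosen after their values were seen. The members and gene lists were chosen with earlier results of these data known. Alternatives were DESeq2 1.42.0, limma-voom (limma 3.58.1), RLE factors, scaling by library size, leaving the filter out or raising it (mean count 50 and 1 CPM throughout a group), all 14 libraries, a replicate block and each library left out. Promoter sequences are from RefSeq (GRCm38.p6).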

Additional observations from a re-analysis of the deposited data

Results flagged for a closer look

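Among the 327 genes named here, 21 had 1 untreated library so far from the other 3 that its gap to the nearest, as a share of the range of the 4, was above Dixon's 95% critical value for 4 samples. Chance alone marks about 1 in 20 groups, and the genes were named by rules that in part look for such libraries. Of the 21, 18 were set apart by WT-NT 4, 2 by WT-NT 2, 1 by WT-NT 3 and 0 by WT-NT 1. WT-NT 4 was the highest of its group for the following genes. It had Angpt2 at 18.4 CPM against 7.65 to 8.89 and Atg12 at 52.1 CPM against 40.3 to 41.97 CPM in the others. This library held Atg13 at 39.5 CPM against 34.2 to 35.02 and Clic5 at 4.68 CPM against 0.410 to 0.628 CPM in the others. The values included Dnajb9 at 39.98 CPM against 21.3 to 23.7 and Fzd7 at 121 CPM against 87.1 to 92.6 CPM in the others. Also high were Nrep at 143 CPM against 42.3 to 52.4 and Perp at 17.6 CPM against 0.824 to 2.83 CPM in the others. The same library had Ppp1r3c at 4.70 CPM against 1.27 to 1.70 and Prrx1 at 735 CPM against 611 to 630.3 CPM in the others. It had Serpinb9b at 110.3 CPM against 11.2 to 18.3 and Trp53inp2 at 169.9 CPM against 127 to 131 CPM in the others. This library held Upk1b at 26.97 CPM against 1.73 to 3.78 CPM in the others. For other genes WT-NT 4 was the lowest. It had Creb3l1 at 123 CPM against 185 to 189 and Cspg4 at 226 CPM against 260.3 to 265 CPM in the others. The library held Hspa5 at 1065 CPM against 1449 to 1479 and Mcm5 at 53.3 CPM against 95.3 to 103 CPM in the others. Also low was Pgd at 151 CPM against 195 to 198 CPM in the others. WT-NT 2 had Cxcl5 at 62.01 CPM against 17.02 to 23.8 CPM in the others. WT-NT 2 had Ero1lb at 2.48 CPM against 3.93 to 4.15 CPM in the others. WT-NT 3 had F13a1 at 49.1 CPM against 9.22 to 13.3 CPM in the others. In Angpt2, Nrep, Ppp1r3c, Prrx1, Trp53inp2, Cspg4 and Hspa5 WT-NT 4 lay on the side away from the starved libraries, and in the rest of the genes it set apart it lay on their side.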

How the results depend on the processing

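The 327 genes named here kept their direction in each of the 15 other settings in which they were tested, except Atp6v0c and Pecam1, which were not called with all 7 libraries, and 0 of the 5161 called genes changed sign. The called genes were chosen by the main fit on largely the same libraries, so a change of sign was unlikely from the start. Calls numbered 6405 with DESeq2, 5020 with limma-voom, 5170 with RLE factors, 5149 with library size alone, 4823 of 19221 with no filter, 5017 of 12486 with the stricter filter and 4063 of 15666 with all 14 libraries. Leaving out 1 library moved the total between 2841 and 6668, higher genes between 1489 and 3458, lower genes between 1252 and 3210, genes at least 2-fold higher between 497 and 1038, and those at least 2-fold lower between 660.0 and 1239. The lowest values came without a starved library and the highest without WT-NT 4; fewer libraries in the smaller group bear on the former by construction, and for the latter the cause was not tested. Of the genes named, many of them as the few members of a list that were called in 1 direction, 62 lost their call with all 14 libraries and 14 with limma-voom. Without WT-GS 1, 2 and 3, 68, 60 and 79 lost it, and without WT-NT 1 to 4, 45, 19, 45 and 4. Library size alone moved the median log2 change of all genes from -0.03 to -0.08.

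Replicate numbers are shared between the groups, so a fit with a replicate block was also made. It called 5862 genes, 2914 higher and 2948 lower, and 21 named genes lost and 7 gained a call. Only WT-NT 4 carries its number, so in this fit that library adds nothing to the difference between media. The nearer comparison is thus the fit without WT-NT 4 and without a block, which called 6668 genes. Deviations of same-numbered libraries correlated at -0.00867, 0.259 and 0.225 for numbers 1, 2 and 3 over genes. Libraries with different numbers correlated between -0.293 and 0.203, so numbers 2 and 3 lay above that range and number 1 within it. Not every pair was thus alike, and the number was not taken as a paired design. Depth limits values near 0.0502 CPM, which a count of 0 allows in the shallowest library.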
